A study of Mus musculus with 9 samples.

Results

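The Smad proteins are the signal transducers of the TGF-beta superfamily. Their genes were described here in 3 types of cultured mouse stem cell. Members were all entries of the gene count table with the symbol Smad1, Smad2, Smad3, Smad4, Smad5, Smad6, Smad7 or Smad9. These were 8 of the 54532 genes with an identifier and a symbol, and all 8 genes that the table assigns to the MH1 family.

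Activated type I receptors phosphorylate the receptor Smads. Smad1, Smad5 and Smad9 serve BMP receptors, and Smad2 and Smad3 serve Activin, Nodal and TGF-beta receptors. Phosphorylated receptor Smads join the common Smad, Smad4, and enter the nucleus to regulate target genes. The inhibitory Smads, Smad6 and Smad7, block this relay, and their own genes are targets of the pathway. Smad6 acts mainly on BMP signalling and Smad7 on both branches. Activin and Nodal signalling through Smad2 and Smad3 sustains primed pluripotent cells, whereas BMP signalling through Smad1 and Smad5 drives them towards mesoderm, germ cell and extraembryonic fates. Messenger RNA does not report phosphorylation, so the values below are transcript levels and not pathway activity.

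All cells came from Sv129 x GOF/GFP F1 blastocysts and grew with Activin A in N2 and B27 medium. AFSCs were derived and kept in Activin A with bFGF, are labelled as similar to epiblast stem cells, and were at passage 15 to 20. ABSCs were AFSCs moved for over 5 passages to Activin A with BMP4, are labelled as similar to trophoblast stem cells, and were at passage 25 to 30. ALSCs were AFSCs moved for over 5 passages to AL medium and were at passage 20 to 25. The protocol gives a recipe of Activin A with LIF under the abbreviation AB, apart from the ABSC recipe, and it was read here as the AL medium. Medium and passage number differ together and cannot be told apart. The protocol also names a different RNA kit for ALSCs. Each group had 3 libraries, and the labels do not say that these were separate cultures, so the p-values measure only the spread between these libraries, which may be technical.

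Libraries held 18978651 to 21578737 counts in genes, so 1 count was worth 0.0459 to 0.0523 CPM, the library-scaled count used for levels (TMM scaling). Pou5f1, a core pluripotency factor, stood at 1074 ± 42.5 CPM in AFSCs, 935 ± 30.6 CPM in ALSCs and 1226 ± 42.4 CPM in ABSCs (mean ± SD, n = 3 here and below). The other pluripotency markers differed in order. Nanog was highest in ALSCs, at 139 ± 6.54, 250 ± 19.3 and 181 ± 21.4 CPM in the same order of groups. Sox2 was highest in AFSCs, at 25.3 ± 1.56, 11.9 ± 1.29 and 16.1 ± 2.22 CPM. Sall4 was at 302 ± 60.5, 319 ± 39.7 and 352 ± 29.2 CPM. All 6 primed epiblast markers exceeded 1 CPM in every library of every group, but their levels differed. They summed to 2682 to 2732 CPM in AFSCs, 2083 to 2388 CPM in ALSCs and 1854 to 2209 CPM in ABSCs. Fgf5 was at 189 ± 4.76, 147 ± 24.3 and 16.3 ± 2.52 CPM in the same order, and Pou3f1 at 77.7 ± 5.67, 29.4 ± 1.57 and 54.0 ± 4.72 CPM. Of 8 trophoblast stem cell markers, 5 did so in ABSCs, 5 in ALSCs and 4 in AFSCs. The 8 summed to 410 to 485 CPM in ABSCs, 163 to 299 CPM in ALSCs and 192 to 260 CPM in AFSCs. In ABSCs Hand1 was at 213 ± 28.7 CPM, Cdx2 at 4.45 ± 3.13 CPM and Tead4 at 5.97 ± 1.38 CPM, against 0.240 ± 0.119, 0.126 ± 0.118 and 3.05 ± 0.727 CPM in AFSCs. Eomes was at 117 ± 68.8, 127 ± 64.0 and 122 ± 38.1 CPM in ABSCs, ALSCs and AFSCs. Gata3 was at 0.750 ± 0.353, 0.170 ± 0.111 and 0.227 ± 0.0750 CPM in the same order, and Elf5 was at no more than 0.329 CPM in any library. Tfap2c was highest in ALSCs, at 8.64 ± 5.02, 18.7 ± 2.66 and 3.79 ± 1.6 CPM in that order. Esrrb was alike in all groups, at 102 ± 14.5, 100 ± 10.7 and 102 ± 5.9 CPM. The higher marker sum in ABSCs thus rested mostly on Hand1. The 7 fibroblast markers summed to 10.3 to 25.3 CPM, with overlapping groups. Libraries numbered 1 stood apart from numbers 2 and 3 in all 3 groups, and values without them are given where they matter.

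Promoter sequences are shown for Smad6, the member with the largest fold change among the 7 tested, for Smad3, its neighbour on chromosome 9, and for Smad9, the member that was barely detected. Each window runs 5′ to 3′ on the gene's strand, with 250 bases before and 50 from the RefSeq start (GRCm38.p6). The windows are chr9:64022010-64022309 for Smad6 and chr9:63757945-63758244 for Smad3, both on the minus strand, and chr3:54755332-54755631 for Smad9 on the plus strand. Capitals mark matches, on either strand, to 4 short words associated with Smad binding.
Smad6: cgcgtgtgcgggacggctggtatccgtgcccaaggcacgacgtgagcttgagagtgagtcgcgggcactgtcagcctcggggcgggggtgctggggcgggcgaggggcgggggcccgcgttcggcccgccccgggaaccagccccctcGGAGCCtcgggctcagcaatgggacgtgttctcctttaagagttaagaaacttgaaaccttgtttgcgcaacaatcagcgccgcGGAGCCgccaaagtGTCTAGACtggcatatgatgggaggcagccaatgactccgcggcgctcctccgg
Smad3: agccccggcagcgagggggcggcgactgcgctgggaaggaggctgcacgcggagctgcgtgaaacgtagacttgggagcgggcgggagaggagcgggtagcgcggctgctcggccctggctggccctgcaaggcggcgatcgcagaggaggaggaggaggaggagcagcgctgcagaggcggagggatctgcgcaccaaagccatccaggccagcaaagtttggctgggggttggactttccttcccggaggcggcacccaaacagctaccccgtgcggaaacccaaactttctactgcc
Smad9: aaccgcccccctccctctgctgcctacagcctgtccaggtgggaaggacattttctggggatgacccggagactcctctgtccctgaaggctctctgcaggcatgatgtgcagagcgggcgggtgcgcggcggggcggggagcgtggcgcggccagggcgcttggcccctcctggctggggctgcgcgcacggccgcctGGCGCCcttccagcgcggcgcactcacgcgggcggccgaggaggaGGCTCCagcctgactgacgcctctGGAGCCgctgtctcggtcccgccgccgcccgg

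GTCTAGAC is the palindromic Smad-binding element, GTCTG a shorter Smad box, and GGCGCC and GGAGCC are GC-rich letters associated with BMP receptor Smads. In the Smad6 window GTCTAGAC began at base 247 and so ran across the annotated start. This word was present in 70 of the 32851 windows of the RefSeq table, or 0.21% of them. The same window held GGAGCC at bases 149 and 233, a word found in 30.85% of windows. Smad9 held GGCGCC at base 200, as did 11.87% of windows, and GGAGCC or its reverse complement at bases 245 and 269. None of these matches overlapped another. Neither the Smad3 nor the Smad1 window held any of the 4 words, and GTCTG, present in 49.59% of windows, occurred among the members only in 1 of the 3 Smad5 windows. The table held windows for 5 of the 8 members, 7 in all. They were rich in G and C, at 63.0 to 73.7% against a median of 52.7% over all windows, with an observed to expected CpG ratio of 0.753 to 1.077 against 0.384. A match of letters is a description of the sequence and not a bound site.

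Levels of different genes were compared as CPM per kilobase of the gene length in the table. By group means, their order was the same in AFSCs, ALSCs and ABSCs, namely Smad4, Smad7, Smad2, Smad5, Smad1, Smad3, Smad6 and Smad9. In AFSCs the common Smad4 was at 33.7 ± 2.04, Smad7 at 19.4 ± 4.72, Smad2 at 13.4 ± 0.902 and Smad5 at 10.4 ± 0.827 CPM per kilobase. Smad1 followed at 8.43 ± 0.365 and Smad3 at 7.88 ± 0.561 CPM per kilobase. Smad6 was far lower at 0.855 ± 0.221 CPM per kilobase, and Smad9 lowest at 0.0333 ± 0.00618. Library ranges of Smad1 and Smad3 overlapped in every group, and those of Smad7 and Smad2 overlapped in AFSCs and ALSCs. In ABSCs the overlap moved up the order, to Smad4 at 31.9 ± 1.91 and Smad7 at 28.5 ± 2.73 CPM per kilobase. Averaged over the 9 libraries, Smad4 exceeded 88.8% of the tested genes on this scale, Smad7 82.8%, Smad3 63.6% and Smad6 32.6%.

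**Figure D1:**
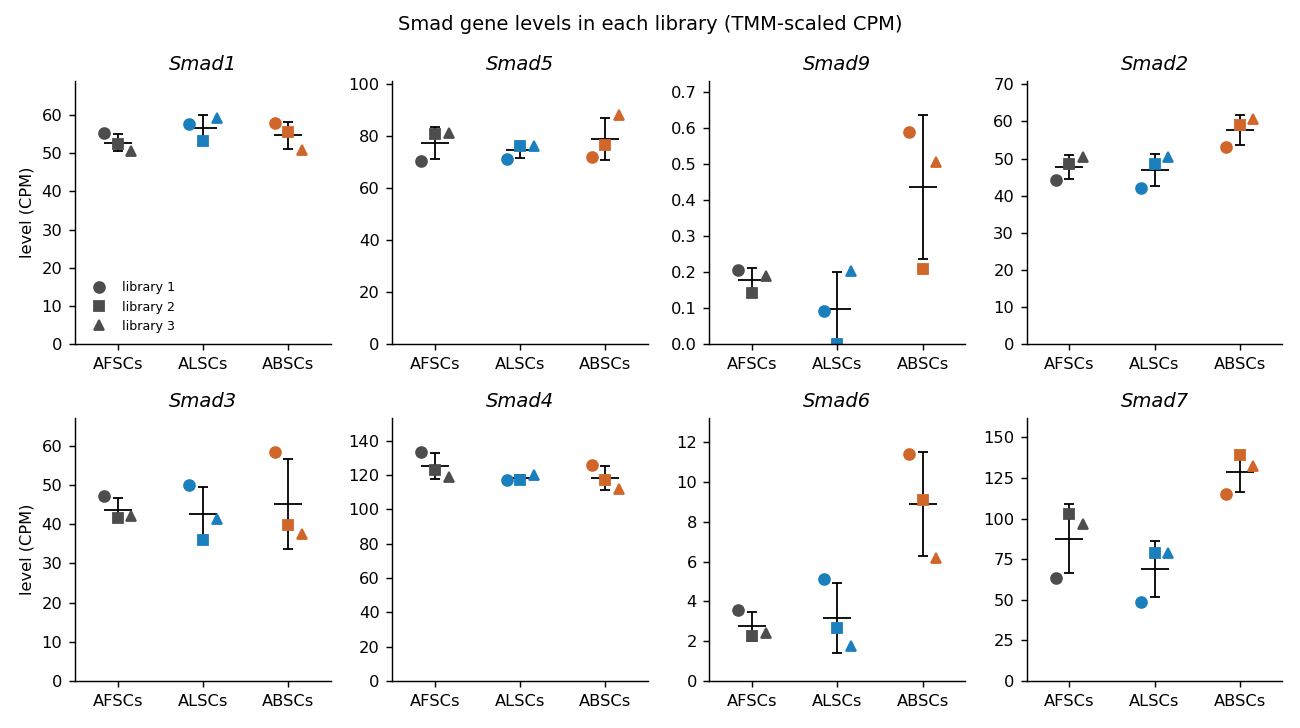
Level of each Smad gene in TMM-scaled CPM (vertical axis, from 0, a separate scale for each gene) in the 3 libraries of AFSCs, ALSCs and ABSCs (points, with a shape for each library number); bars are the mean ± SD. For Smad6, Smad7 and Smad2 all ABSC libraries lie above all libraries of the other groups, whereas Smad1, Smad3, Smad4 and Smad5 overlap. Smad9 separates only through the scaling. Its lowest ABSC library (0.209 CPM) and the highest AFSC (0.206 CPM) and ALSC (0.204 CPM) libraries each held 4 counts. The share of all tested genes that separate in this way was not counted.

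The comparison of ABSCs with AFSCs asks what goes with BMP4 in place of bFGF while Activin A is kept. Of the 7 members that passed the filter on low counts, 1 was called at an adjusted p under 0.05, the inhibitory Smad6, and it was higher in ABSCs. Over all 16178 genes tested, 7.98% were called in either direction and 3.98% as higher. The comparison of ABSCs with ALSCs sets BMP4 against the LIF medium. It called 2 of 7, Smad6 and Smad7, both higher in ABSCs, against 11.0% of all genes in either direction and 5.41% as higher. ALSCs against AFSCs called 0 of 7, against 7.04% of all genes. In that comparison edgeR gave 0 members an unadjusted p under 0.05, and DESeq2 also called 0, beside 1706 of all genes. The test of any difference among the groups called 2 of 7, Smad6 and Smad7, and 14.8% of all genes. Members' median log2 fold changes were 0.05, 0.09 and -0.04 for ABSCs against AFSCs, ABSCs against ALSCs and ALSCs against AFSCs, beside 0.00, -0.01 and 0.00 over all genes. These comparisons share libraries and are not independent of each other.

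The libraries numbered 1 deviated together across the groups. Those numbered 2 and 3 correlated with each other as well, so pairing by number is not shown for them. A fit with the library number as a replicate block changed several calls. With the block, 3 members (Smad2, Smad6 and Smad7) were called higher in ABSCs than in AFSCs, and the same 3 higher than in ALSCs. Smad7 was then called lower in ALSCs than in AFSCs. The block also raised the calls over all genes, to 19.4% for ABSCs against AFSCs, 28.5% for ABSCs against ALSCs and 22.2% for ALSCs against AFSCs. Leaving out the 3 libraries numbered 1 gave the same members in each comparison, beside 28.5, 32.2 and 25.4% of all genes. This choice was made after seeing the data.

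**Figure D2:**
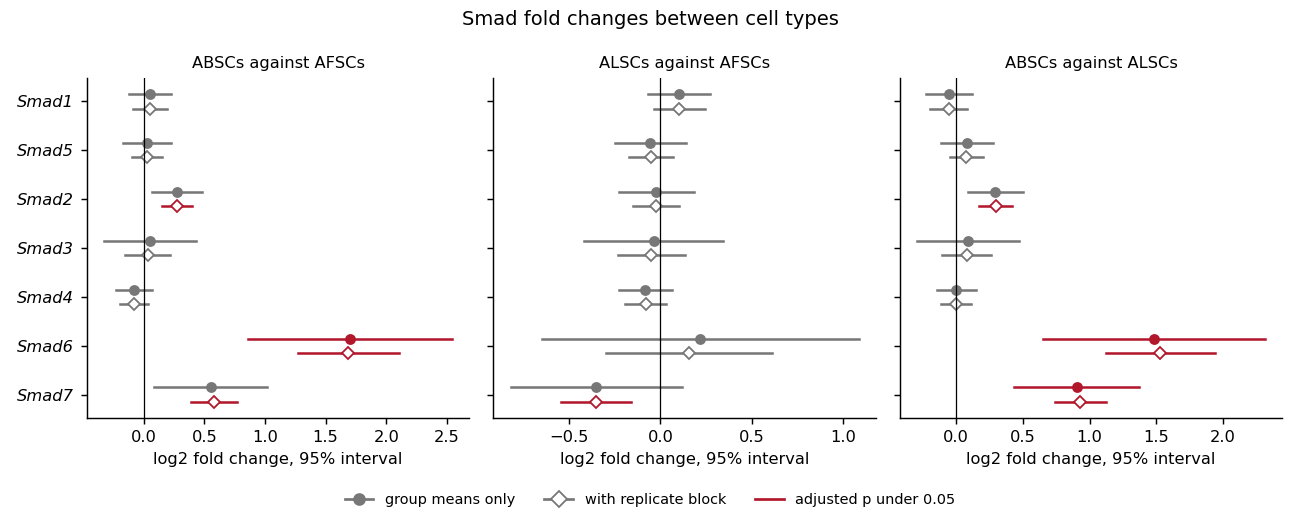
Log2 fold change (horizontal axis) and its 95% interval for the 7 tested Smad genes in each comparison, from the fit of group means (filled circles) and the fit with the replicate block (open diamonds); red marks an adjusted p under 0.05. Smad6 lies farthest from 0 in both comparisons with ABSCs, and Smad2 and Smad7 gain calls with the block.

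Smad6, which competes with Smad4 for activated Smad1 and recruits ubiquitin ligases to BMP receptors, was scarce outside ABSCs. The gene (ENSMUSG00000036867) lies on the minus strand of chromosome 9, from 63953076 to 64022059. AFSC libraries 1, 2 and 3 held it at 3.56, 2.27 and 2.40 CPM. ALSC libraries were at 5.10, 2.66 and 1.73 CPM, and ABSC libraries at 11.4, 9.10 and 6.17 CPM. Every ABSC library exceeded every other library, and the AFSC and ALSC ranges overlapped. The share of all genes that separate in this way was not counted, here and for Smad7 and Smad2 below. These levels rest on 168 counts in AFSCs, 196 in ALSCs and 528 in ABSCs. Smad6 was 3.25-fold higher in ABSCs than in AFSCs (95% interval 1.81 to 5.83, log2 fold change 1.70, SE 0.38, adjusted p = 0.0218). Against ALSCs it was 2.79-fold higher (1.57 to 4.97, log2 1.48, SE 0.37, adjusted p = 0.0318). Between ALSCs and AFSCs the log2 difference was 0.22 (-0.65 to 1.08, adjusted p = 0.806), and it was -0.32 without ALSC library 1. The call against AFSCs was lost without ABSC library 2 (log2 1.68, adjusted p = 0.0699), AFSC library 2 (log2 1.58, adjusted p = 0.101) or AFSC library 3 (log2 1.62, adjusted p = 0.0989), with the fold change little altered. The call against ALSCs was lost without ABSC library 1 (log2 1.26, adjusted p = 0.0574), ABSC library 2 (1.47, 0.0918), AFSC library 3 (1.49, 0.0507), ALSC library 2 (1.38, 0.0967) or ALSC library 3 (1.19, 0.0815). It was also lost when only these 2 groups were fitted (1.48, 0.0750). Within the replicate block the log2 fold changes were 1.69 (1.27 to 2.10, adjusted p = 1.871e-05) and 1.53 (1.12 to 1.94, adjusted p = 3.635e-05).

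Smad7, which binds activated type I receptors and brings Smurf ubiquitin ligases to them, was above Smad6 in every library, per kilobase as well as in CPM. Its gene (ENSMUSG00000025880) lies on the plus strand of chromosome 18, from 75367529 to 75395935. AFSC libraries held 63.3, 103 and 96.8 CPM, ALSC libraries 48.8, 78.8 and 79.0 CPM, and ABSC libraries 115, 139 and 132 CPM. All ABSC libraries were above all others, and the library numbered 1 was the lowest in each group. Smad7 was 1.87-fold higher in ABSCs than in ALSCs (1.35 to 2.59, log2 0.90, SE 0.21, adjusted p = 0.0236). That call was lost without ABSC library 2 (adjusted p = 0.0828) or ABSC library 3 (0.0678), and when no low-count filter was used (0.139). Against AFSCs the log2 difference was 0.55 (0.09 to 1.02, adjusted p = 0.162), and with the block it was 0.58 (0.39 to 0.77, adjusted p = 0.0005505). Without the libraries numbered 1 it was 0.44 (0.34 to 0.54, adjusted p = 9.255e-08). That fit kept only libraries 2 and 3 of each group, a choice made after seeing the data. It called 28.5% of all genes for ABSCs against AFSCs and 25.4% for ALSCs against AFSCs. ALSCs differed from AFSCs by -0.35 (-0.82 to 0.12, adjusted p = 0.382), by -0.35 with the block (-0.54 to -0.16, adjusted p = 0.01395) and by -0.34 without the libraries numbered 1 (-0.45 to -0.24, adjusted p = 1.187e-05).

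Neither receptor Smad of the Activin and Nodal branch was called without the block. Smad2 (ENSMUSG00000024563, chromosome 18, 76241580 to 76305731, plus strand) was at 44.2, 48.5 and 50.4 CPM in AFSCs, 42.0, 48.5 and 50.4 CPM in ALSCs, and 53.0, 58.9 and 60.8 CPM in ABSCs. AFSC and ALSC values nearly coincided, and no ABSC library fell into their range. The difference was small, at log2 0.27 against AFSCs (0.07 to 0.48, adjusted p = 0.115) and 0.29 against ALSCs (0.09 to 0.50, adjusted p = 0.0689). With the block both passed, at 0.27 (adjusted p = 0.00363) and 0.30 (adjusted p = 0.00161). Against ALSCs it also passed without ABSC library 1 (0.36, adjusted p = 0.0335) and with DESeq2 (0.30, adjusted p = 0.0378). Smad3 (ENSMUSG00000032402, chromosome 9, 63646767 to 63757994, minus strand) was at 47.3, 41.7 and 42.1 CPM in AFSCs, 50.1, 36.1 and 41.3 CPM in ALSCs, and 58.5, 39.9 and 37.5 CPM in ABSCs. The spread was widest in ABSCs, where library 1 was the highest of the 9 and the others lay below every AFSC library. Smad3 starts 195.1 kb from the 3′ end of Smad6, on the same strand. The log2 difference of Smad3 between ABSCs and AFSCs was 0.05 (-0.33 to 0.43, adjusted p = 0.926). Its difference between ABSCs and ALSCs was 0.09 (-0.29 to 0.47, adjusted p = 0.789). Without ABSC library 1 these values were -0.17 and -0.13.

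The BMP receptor Smads Smad1 and Smad5 had overlapping library values in all 3 groups, with and without BMP4 in the medium. Smad1 (ENSMUSG00000031681, chromosome 8, 79338395 to 79399518, minus strand) ranged from 50.6 to 55.2 CPM in AFSCs, 53.1 to 59.3 CPM in ALSCs and 50.8 to 57.8 CPM in ABSCs. Its log2 difference between ABSCs and AFSCs was 0.05 (-0.12 to 0.22, adjusted p = 0.806). Smad5 (ENSMUSG00000021540, chromosome 13, 56703010 to 56742377, plus strand) ranged from 70.2 to 81.1 CPM in AFSCs, 71.1 to 76.0 CPM in ALSCs and 72.0 to 87.8 CPM in ABSCs. Its difference was 0.03 (-0.17 to 0.22, adjusted p = 0.929). The upper ends of these intervals correspond to 1.17-fold for both genes. Neither gene was called in the other comparisons, with or without the block. Short RNA genes, 3 in number, overlap Smad5, with at most 7 counts in a library.

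Smad9, the other BMP receptor Smad (ENSMUSG00000027796, chromosome 3, 54755582 to 54801257, plus strand), did not pass the low-count filter. AFSC libraries held 4, 3 and 4 counts, ALSC libraries 2, 0 and 4, and ABSC libraries 12, 4 and 10. The ABSC and AFSC counts touched at 4. Summed over libraries, the level was 0.178 CPM in AFSCs (exact Poisson 95% interval 0.0888 to 0.318), 0.0991 CPM in ALSCs (0.0364 to 0.216) and 0.439 CPM in ABSCs (0.287 to 0.643). These intervals cover counting error only, and the 0 in ALSC library 2 allows up to 0.157 CPM. When tested without the filter, Smad9 differed by log2 1.27 between ABSCs and AFSCs (-0.13 to 2.67, adjusted p = 0.506) and by 2.08 between ABSCs and ALSCs (0.54 to 3.62, adjusted p = 0.117).

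Smad4 (ENSMUSG00000024515, chromosome 18, 73639009 to 73703780, minus strand), the partner shared by both branches, had the highest group means of the family per kilobase. Libraries held 133, 123 and 119 CPM in AFSCs, 117, 117 and 120 CPM in ALSCs, and 126, 117 and 112 CPM in ABSCs. The groups overlapped. Log2 differences were -0.08 for ABSCs against AFSCs (-0.23 to 0.07, adjusted p = 0.590), -0.08 for ALSCs against AFSCs (-0.23 to 0.06, adjusted p = 0.531) and 0.00 for ABSCs against ALSCs (-0.14 to 0.15, adjusted p = 0.986).

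Summing CPM per kilobase over the family gives the make-up of its transcripts, described here without a test. The total was 94.1 ± 3.45 in AFSCs, 88.0 ± 4.10 in ALSCs and 106.9 ± 1.51 CPM per kilobase in ABSCs. Inhibitory Smads made up 21.4 ± 4.08% in AFSCs, 18.3 ± 3.10% in ALSCs and 29.2 ± 2.07% in ABSCs, where all libraries (27.0 to 31.1%) lay above the others (14.8 to 24.2%). Nearly all of it was Smad7, which exceeded Smad6 by 24.5 ± 10.4-fold in AFSCs and by 11.0 ± 4.02-fold in ABSCs. BMP receptor Smads made up 20.1, 21.7 and 18.2% in AFSCs, ALSCs and ABSCs, and Activin and Nodal receptor Smads 22.7, 23.8 and 22.8%. Smad4 made up 35.9, 36.2 and 29.8%. Shares sum to 100%, so a rise of one lowers the rest. Transcripts of inhibitory Smads amounted to 0.503 ± 0.104 of those of receptor Smads in AFSCs, 0.406 ± 0.0827 in ALSCs and 0.714 ± 0.0653 in ABSCs.

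**Figure D3:**
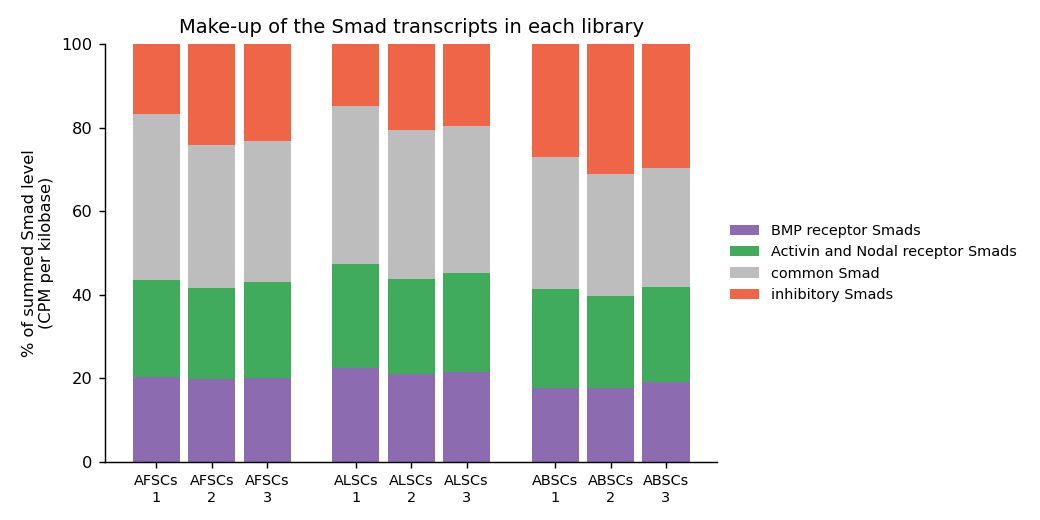
Share of the summed Smad level (vertical axis, percent of CPM per kilobase) held by each class of Smad in each library (bars, labelled by group and library number). Inhibitory Smads take 27.0 to 31.1% in ABSCs and 14.8 to 24.2% in the other groups.

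Library number moved several members in the same direction in all 3 groups. The libraries numbered 1 were higher in Smad6 than the mean of numbers 2 and 3 by 0.61 (AFSCs), 1.24 (ALSCs) and 0.60 (ABSCs) on the log2 scale. They were lower in Smad7, by values of -0.66, -0.69 and -0.24, so the inhibitory Smads differed in opposite directions with library number, while both had their highest group mean in ABSCs. Smad3 was higher in number 1, by 0.17, 0.38 and 0.60, and Smad1 by 0.10, 0.04 and 0.12. Smad2 was lower, at -0.16, -0.23 and -0.17, and so was Smad5, at -0.20, -0.10 and -0.19. The labels do not say what the number stands for, and these differences were not tested.

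**Figure D4:**
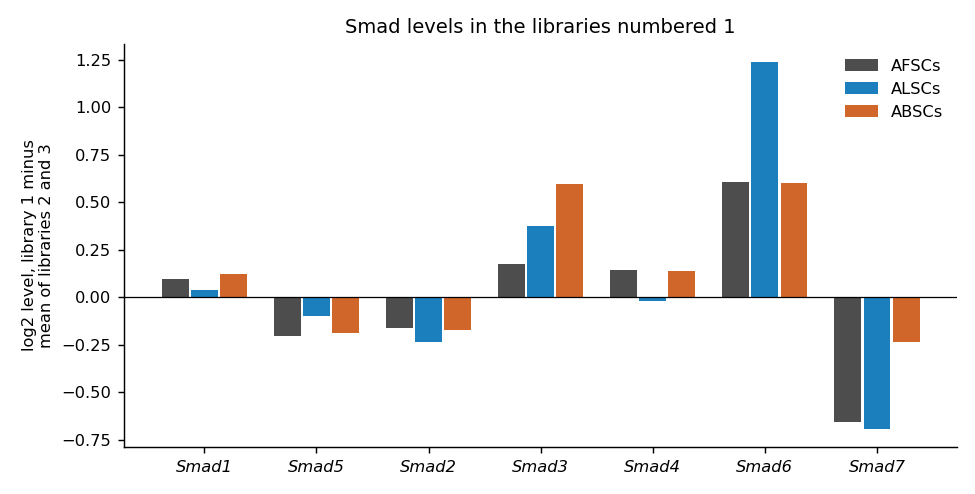
Log2 level in the library numbered 1 minus the mean of libraries 2 and 3 (vertical axis) for 7 Smad genes in AFSCs, ALSCs and ABSCs (bars). Smad6, Smad3 and, by less, Smad1 are above 0 and Smad7, Smad2 and Smad5 below 0 in all 3 groups.

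Over all genes, 7.98% were called for ABSCs against AFSCs, 11.0% for ABSCs against ALSCs and 7.04% for ALSCs against AFSCs. These shares stand beside the counts of this and the following lists, and no list was tested against them. Most tested genes known as targets of the BMP branch were called higher in ABSCs. Of 10 tested BMP and Smad1/5 targets, 7 were called higher and 0 lower than in AFSCs (median log2 1.55), and 6 higher and 0 lower than in ALSCs (median 2.02). Between ALSCs and AFSCs 0 were higher and 1 was lower. Id1, an inhibitor of basic helix-loop-helix factors, was at 59.8 ± 7.60 CPM in ABSCs and 2.08 ± 0.936 CPM in AFSCs (log2 4.85, SE 0.42, adjusted p = 0.000121). Id2, of the same family, was at 30.2 ± 0.328 CPM in ABSCs, 6.54 ± 0.967 CPM in AFSCs and 1.66 ± 0.288 CPM in ALSCs. The homeobox gene Msx2 was at 3.50 ± 0.751 CPM in ABSCs and 0.410 ± 0.182 CPM in AFSCs (log2 3.09, adjusted p = 0.001241).

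Targets of the Activin and Nodal branch split. Of 17 tested, 2 were higher and 7 lower in ABSCs than in AFSCs (median log2 -0.54), and 2 were higher and 7 lower than in ALSCs (median -0.33). ALSCs against AFSCs gave 4 higher and 1 lower. Lefty1, a secreted Nodal inhibitor, was at 16.1 ± 9.84 CPM in ABSCs, 130 ± 35.6 CPM in AFSCs and 277 ± 53.9 CPM in ALSCs. The endoderm factor Foxa2 was at 0.307 ± 0.142 CPM in ABSCs and 15.5 ± 1.16 CPM in AFSCs (log2 -5.64, SE 0.27, adjusted p = 4.186e-06), and Gsc, an organizer homeobox gene, at 0.845 ± 0.367 and 8.83 ± 0.890 CPM. Tdgf1, the Nodal co-receptor, went the other way, at 779 ± 86.2 CPM in ABSCs and 555 ± 13.2 CPM in AFSCs (log2 0.49, adjusted p = 0.005931). The summed level of 6 endoderm markers was 1.47 to 2.30 CPM in ABSCs, 17.4 to 23.2 CPM in AFSCs and 21.5 to 31.2 CPM in ALSCs. Afp, one of them, was at 0 in every AFSC and ALSC library. Foxa2 stands in both lists and made up most of the AFSC and ALSC sums, at 15.5 ± 1.16 and 17.2 ± 2.98 CPM. Gata4, Gata6 and Sox17 also had their lowest mean in ABSCs. Sox7 went the other way, at 0.629 ± 0.271, 0.275 ± 0.190 and 0.296 ± 0.170 CPM in ABSCs, AFSCs and ALSCs. The part of endoderm cells in these values was not tested, and fewer cells of a type cannot be told apart from less RNA per cell.

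Receptors and co-receptors receive the ligand signal upstream of the Smads. Among 13 tested, 2 were higher and 1 lower in ABSCs than in AFSCs, and 0 higher and 1 lower than in ALSCs. Tgfbr3, the betaglycan co-receptor, fell from 39.4 ± 3.67 CPM in AFSCs to 16.4 ± 4.20 CPM in ABSCs (log2 -1.27, adjusted p = 0.009086). Bambi, a decoy receptor and BMP target, was at 18.3 ± 2.31 CPM in ABSCs and 12.6 ± 1.64 CPM in AFSCs (log2 0.54, adjusted p = 0.03584). ALSCs against AFSCs gave 1 higher (Tdgf1) and 1 lower receptor gene (Eng).

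Of 18 tested ubiquitin ligases, deubiquitinases and phosphatases of Smads, 4 were higher and 0 lower in ABSCs than in AFSCs. They were Ctdsp2 (89.8 ± 8.91 against 52.1 ± 6.95 CPM) and Ctdsp1, phosphatases of the Smad linker, Nedd4l, a ligase for activated Smad2 and Smad3, and Usp9x, a deubiquitinase of Smad4 (360 ± 5.05 against 266 ± 7.81 CPM, log2 0.44, adjusted p = 0.001329). The other comparisons gave 2 higher and 1 lower for ALSCs against AFSCs, and 1 higher and 1 lower for ABSCs against ALSCs. None of the 10 tested anchors and nuclear transport factors was called in any comparison by edgeR without the block. With it, 1 was higher and 3 lower in ALSCs than in AFSCs, and 1 was higher in ABSCs than in ALSCs.

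Of 20 tested partners and co-regulators, 3 were higher and 1 lower in ABSCs than in AFSCs, 4 higher and 2 lower than in ALSCs, and 1 higher and 2 lower in ALSCs than in AFSCs. With the block, 11 were higher and 2 lower in ABSCs than in ALSCs. Zfp423, a zinc finger partner of Smad1 and Smad4 in BMP responses, was at 37.5 ± 4.70 CPM in ABSCs and 21.2 ± 2.61 CPM in AFSCs (log2 0.82, adjusted p = 0.004977). Zeb2, a repressor that binds Smads, was at 2.86 ± 0.297, 6.24 ± 0.904 and 9.62 ± 3.25 CPM in ABSCs, AFSCs and ALSCs. The repressor Skil was lower in ALSCs than in AFSCs (log2 -0.30, adjusted p = 0.03057). Of 19 tested ligands and secreted inhibitors, 2 were higher and 3 lower in ABSCs than in AFSCs, 1 higher and 4 lower than in ALSCs, and 1 higher and 0 lower in ALSCs than in AFSCs. The last was Gdf3, a Nodal-related ligand, at 14.1 ± 5.77 CPM in ALSCs and 0.755 ± 0.217 CPM in AFSCs. Gdf3 was also called higher in ABSCs than in AFSCs, at 8.25 ± 3.02 CPM (log2 3.43, adjusted p = 0.001343). Bmp7 fell from 18.0 ± 1.94 CPM in AFSCs to 9.30 ± 1.83 CPM in ABSCs (log2 -0.95, adjusted p = 0.007907).

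With the replicate block, counts of called genes in several lists moved by more than 1.5-fold, while calls over all genes rose from 1291 to 3132 (ABSCs against AFSCs), 1139 to 3590 (ALSCs against AFSCs) and 1775 to 4605 (ABSCs against ALSCs). BMP targets then gave 2 higher and 2 lower in ALSCs than in AFSCs, and Activin and Nodal targets 7 higher and 2 lower. Receptors gave 4 higher and 1 lower in ABSCs than in AFSCs, 2 and 2 in ALSCs than in AFSCs, and 0 and 3 in ABSCs than in ALSCs. Ubiquitin enzymes and phosphatases gave 5 and 2, 3 and 2, and 4 and 1 in the same comparisons. Partners gave 5 and 2 in ABSCs, and 3 and 5 in ALSCs, against AFSCs. Ligands and inhibitors gave 3 and 5, 6 and 1, and 2 and 6 in the comparisons in that order. BMP targets in ABSCs stayed close, at 8 higher and 0 lower than in AFSCs and 7 and 0 than in ALSCs. Bambi, Tdgf1 and Skil each stand in 2 lists, and the lists were chosen with earlier results known.

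Among 9016 protein-coding genes with a mean of at least 10 CPM, those whose log2 levels followed Smad6 most closely over the 9 libraries were Swap70 (Pearson r = 0.981), Igsf3 (0.980) and Pitrm1 (0.980). For Smad7 they were Gli3 (0.987), Yap1 (0.986) and Mvd (0.984). Gli3 was at 65.7 ± 10.3 CPM in AFSCs, 52.5 ± 10.5 CPM in ALSCs and 92.0 ± 7.47 CPM in ABSCs, the order of Smad7 itself. Igsf3 was at 23.6 ± 2.47, 27.2 ± 7.37 and 53.7 ± 6.50 CPM. The libraries share groups and library numbers, so these correlations are a description only.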

How the data were processed

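RNA of 9 libraries was sequenced after poly-A selection with an unstranded kit, per the labels' protocols. The authors deposited raw read counts per gene. Alignment used HISAT2 2.0.5 and gene counting featureCounts 1.5.0-p3, per the submitters' processing notes. Their build name is mm9, but gene positions in the deposited table equal those of a GRCm38 annotation for most genes and for 7 of the 8 members, so the table's positions are given as GRCm38. The instrument is given differently in 2 label fields. Entries without an identifier (346, holding 0.2075 to 0.2273% of counts) were left out. Libraries were grouped by their labelled cell type.

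Counts were fitted in edgeR 4.0.16 (R 4.3.3) with the robust quasi-likelihood test, group means over all 9 libraries, TMM scaling and filterByExpr (minimum count 10, minimum total 15), which left 16178 genes. Benjamini-Hochberg adjustment ran over all of them, 2-sided, and calls had an adjusted p under 0.05. DESeq2 1.42.0, other scalings, no filter, 2-group fits, the replicate block and leaving out each library were alternatives. The code was tested on simulated data. All members are described. Up to 4 called genes of each pathway list with the largest change and a mean of at least 1 CPM could be named, with the 3 genes most like each member called in the test of any difference. Members and lists were chosen with earlier results of these data known.

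The labels give the same library numbers in each group. Deviations from group means correlated at 0.464 to 0.554 between libraries numbered 1, 0.197 to 0.287 for number 2 and 0.224 to 0.356 for number 3, against -0.426 to 0.273 between different numbers. Every same-number correlation exceeded 0.1, so the numbers were used as a replicate block. Libraries numbered 2 and 3 of different groups also correlated with each other, at 0.221 to 0.273. The values therefore set apart the libraries numbered 1, and do not show that numbers 2 and 3 pair the libraries.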

Additional observations from a re-analysis of the deposited data

How the results depend on the processing

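Of 336 alternative values of the members' log2 fold changes, 296 kept their direction and their side of the threshold, 10 passed it newly, 12 no longer passed it and 18 changed sign. None of these 18 was called, and each interval spans 0. Over the fits that leave out 1 library, those that crossed 0 ranged as follows. For ABSCs against AFSCs, Smad3 ranged from -0.168 to 0.174 and Smad5 from -0.0562 to 0.0925. For ALSCs against AFSCs, Smad2 ranged from -0.0795 to 0.0498, Smad3 from -0.176 to 0.0618 and Smad6 from -0.316 to 0.513. For ABSCs against ALSCs, Smad1 ranged from -0.0894 to 0.0064, Smad3 from -0.131 to 0.232 and Smad4 from -0.0392 to 0.0491. Scaling by library size alone gave 0.0211 for Smad2 and 0.0106 for Smad3 (ALSCs against AFSCs), and -0.0651 for Smad4 (ABSCs against ALSCs). Without the libraries numbered 1, Smad3 was at -0.110 (ABSCs against AFSCs), Smad6 at -0.0912 (ALSCs against AFSCs) and Smad4 at -0.0426 (ABSCs against ALSCs). With the replicate block, calls over all genes rose from 1291 to 3132 (ABSCs against AFSCs), 1139 to 3590 (ALSCs against AFSCs), 1775 to 4605 (ABSCs against ALSCs) and 2395 to 5992 (any difference), and members called were 3, 1, 3 and 3. Without the 3 libraries numbered 1, a choice made after seeing the data, they were 4622, 4122, 5225 and 7121 genes and again 3, 1, 3 and 3 members. The block changed no other member's call. Fitting only the groups compared gave 1041 genes and 1 member (Smad7, not Smad6) for ABSCs against ALSCs. Without the low-count filter 1 member (Smad6) was called there, and 1 for any difference, beside 1787 and 2596 of 32197 genes. DESeq2 called 3 members in both, beside 2347 and 3324 of 16178 genes. The causes were not tested.

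Leaving out each library in turn gave 667 to 1723, 345 to 1522, 846 to 2337 and 1395 to 3048 genes in the same order of comparisons, and 0 to 1, 0 to 0, 0 to 2 and 0 to 3 members. Scaling by library size alone gave 615 higher and 1135 lower genes for ABSCs against ALSCs (875 and 900 with TMM) and 666 and 444 for ALSCs against AFSCs (573 and 566), with the same number of members called. Without division by length, the BMP receptor Smads made up 29.8, 31.9 and 27.2% in AFSCs, ALSCs and ABSCs, and the inhibitory Smads 20.6, 17.5 and 27.9%. Depth limits Smad9 and, less, Smad6.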
